A study of Caenorhabditis elegans with 2 samples.

Results

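The genes for the RNase P RNA (rpr-1), the RNase MRP RNA (mrpr-1), the Y RNA (yrn-1) and 4 copies of the signal recognition particle RNA (srpr-1.1, srpr-1.2, srpr-2.1 and srpr-2.2) are 7 of the 46890 nuclear genes in the Caenorhabditis elegans gene models. They were chosen by symbol, with earlier results on the same peaks known: each had a reproducible DIE-1 ChIP-seq summit within 200 bp, so the presence and signal of those peaks are given as a description and no test was made. The remaining SRP RNA gene of the gene models, srpr-3, had no such summit and is used for comparison.

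All of these RNAs are stable, untranslated RNAs that eukaryotes usually make with RNA polymerase III. The RNase P RNA is the catalytic core of the enzyme that removes the 5′ leader of tRNA precursors, and the related RNase MRP RNA belongs to an enzyme that cuts ribosomal RNA precursors. Y RNA binds the Ro protein, and signal recognition particle (SRP) RNA is the scaffold of the particle that brings ribosomes making secreted and membrane proteins to the endoplasmic reticulum. In vertebrates, the genes of the RNase P, RNase MRP and Y RNAs have a TATA box and a proximal sequence element upstream of the start, whereas tRNA genes have internal promoter boxes called A and B.

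Antibody to the tag was used to recover DIE-1, a transcription factor with zinc fingers. Chromatin came from whole young adult hermaphrodites of strain RW10316, a stable transgenic line that makes DIE-1 with GFP and FLAG at its C terminus, and was sheared by sonication. Worms were collected 64 hours after synchronization as starved L1 larvae that followed bleaching, and the sample description gives the antibody as anti-GFP. The samples formed 1 group of 2 biological replicates, so there was no contrast between conditions, and the control used for peak calling was not analysed here. The material was whole animals, so a peak cannot be assigned to a tissue.

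Of the 4 deposited lists used, the reproducible list held 1432 peaks selected from both replicates. There were 30000 relaxed peaks from pooled reads, 23789 from replicate 1 alone and 29268 from replicate 2 alone. Each peak has a signal, which is the authors' own value on a scale not given in the sources used here, and a summit, its highest point. The lists hold no read counts, so the depth behind each value is unknown. Offsets below count from the first base of a gene, which is 0, along its direction of transcription.

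The DNA just before 6 of the 7 genes and srpr-3 is shown because the genes fell into separate groups there. Each line holds the 100 bases before the gene and its first 20 bases, from the RefSeq genome on WBcel235 (ce11). The windows are II:7200133-7200252 (+) for mrpr-1, IV:7499408-7499527 (+) for yrn-1, III:4379187-4379306 (−) for srpr-1.1 and III:4369368-4369487 (+) for srpr-1.2. They are III:5211120-5211239 (+) for srpr-2.1, III:5031689-5031808 (−) for srpr-2.2 and V:9293613-9293732 (−) for srpr-3. Capitals mark TATATA starting at -34 to -24, TGTCNG starting at -60 to -50, TTATATTT at -29 and GAAAAACC at -8.
mrpr-1: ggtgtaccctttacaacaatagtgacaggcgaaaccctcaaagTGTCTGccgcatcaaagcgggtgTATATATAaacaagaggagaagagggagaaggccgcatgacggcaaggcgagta
yrn-1: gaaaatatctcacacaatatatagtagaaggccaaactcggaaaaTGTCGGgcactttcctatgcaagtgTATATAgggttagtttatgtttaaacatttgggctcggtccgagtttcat
srpr-1.1: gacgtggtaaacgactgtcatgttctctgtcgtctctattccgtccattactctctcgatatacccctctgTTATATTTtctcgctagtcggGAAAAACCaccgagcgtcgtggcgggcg
srpr-1.2: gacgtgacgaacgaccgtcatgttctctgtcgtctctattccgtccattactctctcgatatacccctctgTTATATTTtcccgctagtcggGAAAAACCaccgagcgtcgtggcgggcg
srpr-2.1: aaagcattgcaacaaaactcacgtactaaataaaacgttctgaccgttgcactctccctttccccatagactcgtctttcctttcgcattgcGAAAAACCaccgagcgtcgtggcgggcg
srpr-2.2: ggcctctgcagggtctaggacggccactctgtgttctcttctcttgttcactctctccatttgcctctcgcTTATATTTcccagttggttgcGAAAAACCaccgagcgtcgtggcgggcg
srpr-3: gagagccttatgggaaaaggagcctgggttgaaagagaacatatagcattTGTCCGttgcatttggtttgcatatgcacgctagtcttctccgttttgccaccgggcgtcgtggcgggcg

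Upstream of mrpr-1, which codes for the RNA of the rRNA-processing enzyme, TATATA began at -34 and again, overlapping, at -32, and TGTCNG began at -57. At yrn-1, the Y RNA gene, the same words began at -30 and -55. The rpr-1 gene for the RNase P RNA had them at the same distances as yrn-1, -30 and -55. None of the 4 SRP RNA genes with a peak had either word at these places. Among all nuclear genes, 1.36% had TATATA starting at -34 to -24 on the strand of the gene and 0.753% had TGTCNG starting at -60 to -50. Among snRNA genes, a class read partly by polymerase III, the counts were 18 and 14 of 129, and among tRNA genes 4 and 15 of 612. The word TGTCNG, like GAAAAACC and TTATATTT, was picked after the sequences had been read, so these positions describe the genes and support nothing further.

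The 4 SRP RNA genes with a peak instead shared GAAAAACC directly before the gene, at -8. Of 46886 nuclear genes with a full window, 5 (0.0107%) had this word at that position, and those 4 genes were among them. On either strand of the 150-base window from 100 bases before to 50 bases into the gene, 1.35% of nuclear genes had it. TTATATTT began at -29 in srpr-1.1, srpr-1.2 and srpr-2.2 but was not found in the window of srpr-2.1, and 3.98% of all nuclear genes had it in theirs. In the 100 bases before the gene, on its strand, ACTCTC was 1 of 4 words of 6 bases found in all 4 of these genes, against 2.31% of all nuclear genes, and the others lie inside GAAAAACC. The srpr-3 gene, which had no reproducible peak, lacked GAAAAACC and TTATATTT and had TGTCNG at -50.

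Neither internal promoter core was found in the 7 genes. The box A core TGGCNNAGT and the box B core GTTCGANNC were each absent from 7 of 7 windows of 250 bases before to 50 into the gene, searched on both strands, and from the 7 whole genes on their own strand. Of 612 tRNA genes, 72.1% held the box B core within the gene and 9.97% held the box A core. On either strand, TATAAA or TATATA was in 7 of 7 of the longer windows, against 42.6% of all nuclear genes. It was in 3 of 7 of the 150-base windows, against 25.2%. The 3 genes with it near the start were rpr-1, mrpr-1 and yrn-1, while in srpr-1.1 the matches were a TATATA repeat that began at -189. The matches began at -216 in srpr-1.2 and at -105 and -103 in srpr-2.1. In srpr-2.2 they were at -238 and -196, only on the strand opposite to the gene. A missing word says only that those letters are not in that window.

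The 3′ ends were alike. A run of at least 4 T, the usual signal that ends polymerase III transcription, began between 3 bases before and 1 base after the last base of each of the 7 genes, and at the last base of srpr-3. It had 5 T at rpr-1 and at the 4 SRP RNA genes with a peak, and 4 T at mrpr-1 and yrn-1. Such a run in the last 6 bases or the next 30 was found at 99.0% of tRNA genes, 60.4% of snoRNA genes, 41.9% of snRNA genes and 51.9% of all nuclear genes. The Y RNA gene is shown whole with the next 10 bases (IV:7499508-7499622, +), with its terminal T run in capitals, as it is the shortest of the 7. Another run of 4 T, inside the gene and outside the bases searched, is left in small letters.
yrn-1: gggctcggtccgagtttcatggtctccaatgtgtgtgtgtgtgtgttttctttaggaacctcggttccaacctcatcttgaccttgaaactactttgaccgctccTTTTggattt

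The SRP RNA genes are near copies, and how near is shown here because it bears on where reads can be placed. The lines give srpr-2.1 (III:5211220-5211518, +), srpr-1.2 (III:4369468-4369766, +) and srpr-3 (V:9293334-9293632, −) on the same build. Capitals mark bases that differ from srpr-2.1 in the alignment, 17 in srpr-1.2 and 53 in srpr-3.
srpr-2.1: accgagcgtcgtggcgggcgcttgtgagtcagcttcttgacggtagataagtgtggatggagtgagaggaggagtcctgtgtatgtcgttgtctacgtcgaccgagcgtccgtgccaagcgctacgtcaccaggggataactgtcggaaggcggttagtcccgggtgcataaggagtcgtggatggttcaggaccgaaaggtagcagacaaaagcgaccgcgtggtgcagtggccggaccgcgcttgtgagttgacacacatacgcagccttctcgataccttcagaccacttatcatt
srpr-1.2: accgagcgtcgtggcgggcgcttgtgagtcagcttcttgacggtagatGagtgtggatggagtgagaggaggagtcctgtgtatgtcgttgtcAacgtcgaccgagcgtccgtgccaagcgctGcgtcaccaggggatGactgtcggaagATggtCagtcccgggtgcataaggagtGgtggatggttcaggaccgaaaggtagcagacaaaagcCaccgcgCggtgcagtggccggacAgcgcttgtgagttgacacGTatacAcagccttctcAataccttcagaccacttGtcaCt
srpr-3: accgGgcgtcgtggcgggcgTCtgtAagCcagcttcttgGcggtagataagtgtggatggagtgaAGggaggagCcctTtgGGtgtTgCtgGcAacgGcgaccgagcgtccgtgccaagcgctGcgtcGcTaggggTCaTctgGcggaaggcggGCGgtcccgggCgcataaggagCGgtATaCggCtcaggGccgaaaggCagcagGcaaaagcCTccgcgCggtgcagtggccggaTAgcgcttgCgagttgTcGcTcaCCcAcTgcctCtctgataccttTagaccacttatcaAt

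The 4 SRP RNA genes with a peak form 2 pairs. srpr-1.1 and srpr-1.2 were identical at 98.3% of aligned positions and shared an unbroken run of 190 bp. srpr-2.1 and srpr-2.2 were identical at 99.0%, with a run of 158 bp. Between the pairs identity was 94.0% to 94.3%, and srpr-3 matched the 4 at 81.7% to 82.3%, with no shared run over 30 bp. The pairs differed outside the gene, where the 100 bases upstream were identical at 95 of 100 positions between srpr-1.1 and srpr-1.2 and 53.3% identical between srpr-2.1 and srpr-2.2.

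All 7 genes had a reproducible summit within 200 bp, which is what selected them and is no result. Under the same rule 77.1% of 612 tRNA genes, 22.3% of 346 snoRNA genes, 20.9% of 129 snRNA genes and 4.46% of 5451 other RNA genes of 100 to 300 bp had one. Peak signals of the 7 spanned from near the top of the list to its last places. The following values are for the strongest summit within 200 bp of each gene, first in the reproducible list, whose values equal those of the pooled list, and then in each replicate. Ranks count every peak of a list, mitochondrial peaks included, and 1411 of the 1432 reproducible peaks were nuclear.

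The RNase P RNA gene rpr-1 (WBGene00045238, I:13463955-13464207, + strand, 253 bp) had the highest signal of the 7. It measured 344.1, rank 45 of 1432, with 136.2 in replicate 1 (rank 54) and 216.1 in replicate 2 (rank 36). Among nuclear peaks alone these ranks were 28, 36 and 20. The mean of the replicates was 176 ± 56.5 (SD, n = 2). The gene lies antisense within an intron of ints-8, whose homologs code for a subunit of the Integrator complex. The peak at rpr-1 stood alone, since the next reproducible summit was 90960 bp away and the nearest gene for a tRNA, snoRNA, snRNA, miRNA or rRNA, cel-mir-1824, was 49748 bp away. Its signal was above that of 463 of the 472 tRNA genes, 60 of the 77 snoRNA genes and 27 of the 27 snRNA genes with a reproducible summit.

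The RNase MRP RNA gene mrpr-1 (WBGene00045095, II:7200233-7200418, + strand, 186 bp) came next with 250.1, rank 118 of 1432. It had 91.7 in replicate 1 (rank 186) and 159.5 in replicate 2 (rank 88), a mean of 126 ± 48.0 (SD, n = 2). Both enzymes' RNA genes were thus in the top 8.24% of the reproducible list. The protein-coding gene pcrg-1 starts 130 bp downstream on the same strand. The signal at mrpr-1 was above 423 of the 472 tRNA genes, 40 of the 77 snoRNA genes and 24 of the 27 snRNA genes.

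The Y RNA gene yrn-1 (WBGene00006967, IV:7499508-7499612, + strand, 105 bp) had 147.4, rank 437, the median rank of the 7. The signal at yrn-1 was above 198 of the 472 tRNA genes, 24 of the 77 snoRNA genes and 18 of the 27 snRNA genes. Its replicates had the largest ratio of the 7 genes, with 47.0 in replicate 1 (rank 892) and 101.0 in replicate 2 (rank 323), a mean of 74.0 ± 38.1 (SD, n = 2). A pair of annotated genes runs opposite to it, F55G1.15, in an intron of which it lies, and the non-coding RNA gene F55G1.20, whose exon covers all 105 bp. Peak positions carry no strand, so yrn-1 and F55G1.20 cannot be told apart as the gene under this summit.

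Among the SRP RNA genes, srpr-2.1 (WBGene00195016, III:5211220-5211518, + strand, 299 bp) was highest with 189.3, rank 263. It measured 75.4 in replicate 1 (rank 318) and 116.4 in replicate 2 (rank 234), a mean of 95.9 ± 29.0 (SD, n = 2). It overlaps no other annotated gene, the nearest being ZC155.4 at 262 bp, and is the only one of the 7 with another reproducible summit within 200 bp (87.7, rank 1208). Its near copy srpr-2.2 (WBGene00195017, III:5031410-5031708, − strand, 299 bp) had 116.0, rank 708. It measured 51.3 in replicate 1 (rank 747) and 67.7 in replicate 2 (rank 710), a mean of 59.5 ± 11.6 (SD, n = 2). That gene lies antisense in an intron of the kinesin gene klp-6, and the non-coding RNA gene R144.16 overlaps its first 39 bp on the same strand.

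The other pair was lower. srpr-1.2 (WBGene00045168, III:4369468-4369766, + strand, 299 bp), in an intron of ckb-2 on the same strand, had 106.4, rank 839. It had 36.9 in replicate 1 (rank 1556) and 71.3 in replicate 2 (rank 645), a mean of 54.1 ± 24.3 (SD, n = 2). srpr-1.1 (WBGene00045189, III:4378909-4379206, − strand, 298 bp) had 79.5, rank 1428, where the lowest signal of the list was 79.4. It measured 40.8 in replicate 1 (rank 1219) and 51.8 in replicate 2 (rank 1214), a mean of 46.3 ± 7.72 (SD, n = 2). Those are different summits, at +242 inside the gene and at +433 past it, so the SD does not describe 1 position. In both replicates srpr-2.1 was above the other 3 SRP RNA genes, whose order changed, with srpr-2.2 second in replicate 1 and srpr-1.2 second in replicate 2. In the reproducible list, srpr-2.1 was above 305 of the 472 tRNA genes, srpr-2.2 above 95, srpr-1.2 above 64 and srpr-1.1 above 0. Of the 77 snoRNA genes, in the same order, 31, 14, 12 and 0 were lower. Of the 27 snRNA genes, 22, 12, 7 and 0 were lower.

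srpr-1.1 was the member nearest to the threshold. Its only reproducible summit lay 154 bp past the end of the gene, inside a coding exon of pals-26. That gene runs toward srpr-1.1 and ends 1 bp before it. The protein-coding gene B0284.3 lies 114 bp from srpr-1.1 on the same strand. On the far side of the threshold, srpr-3 (WBGene00195018, V:9293334-9293632, − strand, 299 bp) had pooled signal 42.3 (rank 6021). Its replicates measured 14.8 (rank 14633) in replicate 1 and 25.1 (rank 7249) in replicate 2. The non-coding RNA gene F44A2.13 covers all 299 bp of srpr-3 on the same strand. In each replicate srpr-3 was below all 7 genes. Those were chosen with their reproducible peaks known and srpr-3 had none, so this order is no separate result. The −log10 q-value at the strongest summit of each of the 7 genes was the highest its list contains, 2.41 in the pooled and reproducible lists, 2.46 in replicate 1 and 2.30 in replicate 2, against 0.723, 0.137 and 0.571 at srpr-3 in the pooled list, replicate 1 and replicate 2. That value is a ceiling shared by all 1432 reproducible peaks, 1686 pooled peaks, 1855 peaks of replicate 1 and 1506 of replicate 2, so it does not set the 7 genes apart.

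**Figure D1:**
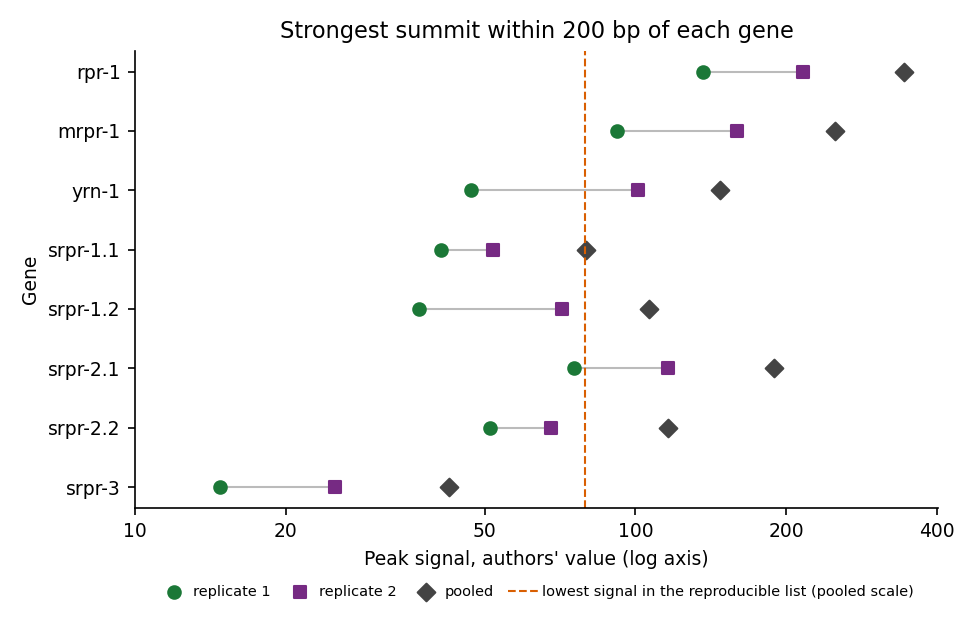
Peak signal, on a log axis, of the strongest summit within 200 bp of each gene in replicate 1 (circles), replicate 2 (squares) and the pooled list (diamonds); the dashed line is the lowest pooled signal in the reproducible list, 79.4. Replicate 2 lies to the right of replicate 1 for all 8 genes, and srpr-3 lies left of the line at 42.3.

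**Figure D2:**
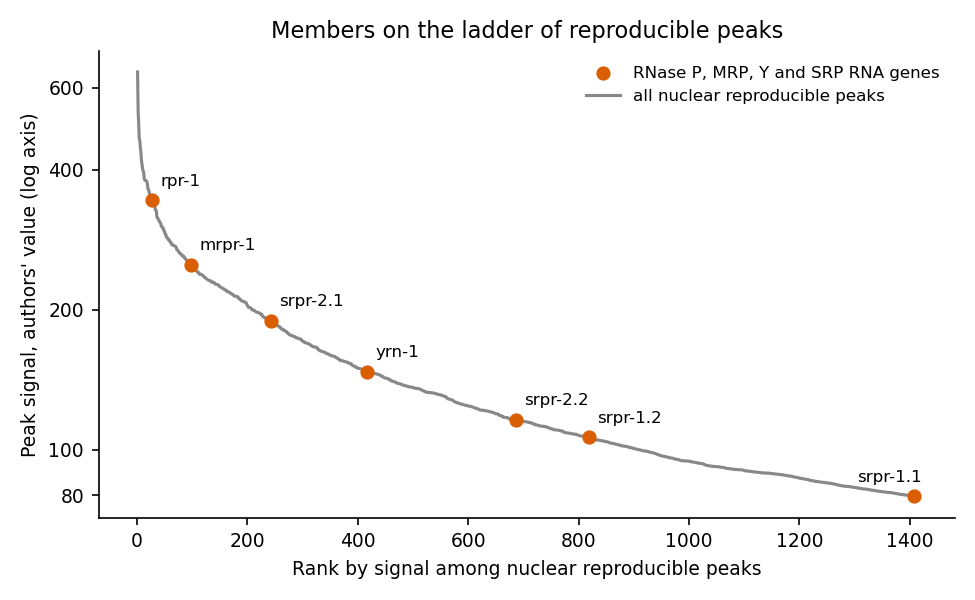
Signal (log axis) against rank among the nuclear reproducible peaks (line), with the strongest peak of each of the 7 genes as a point. Mitochondrial peaks are left out here, so the ranks differ from those in the text. The genes run from rpr-1 at 344.1 to srpr-1.1 at 79.5, the low end of the list.

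By its strongest summit, each gene had a higher signal in replicate 2 than in replicate 1, as most peaks did. The ratio of replicate 2 to replicate 1 was 1.27 at srpr-1.1, 1.32 at srpr-2.2, 1.54 at srpr-2.1 and 1.59 at rpr-1. It was 1.74 at mrpr-1, 1.93 at srpr-1.2 and 2.15 at yrn-1. Over 1404 nuclear reproducible peaks with a summit of both replicates within 200 bp of the peak's own summit, the median ratio was 1.36. The middle 50% ran from 1.08 to 1.66, and 269 peaks had a ratio under 1. The ratios of the 7 genes instead took the strongest summit within 200 bp of the gene, so the rules differ. At srpr-1.1 the 2 summits were 191 bp apart, at +242 in replicate 1 (40.8) and at +433 in replicate 2 (51.8). Replicate 2 also had 26.8 at +232, below the replicate 1 value at +242. With that limit, mrpr-1, srpr-1.2 and yrn-1 lay above the middle 50%, and the other four lay within it. Medians were 1.59 for the 7 genes, 1.46 for tRNA genes, 1.45 for snoRNA genes and 1.34 for snRNA genes. The median of nuclear reproducible peaks was 51.8 in replicate 1 and 67.3 in replicate 2. Divided by these medians, the 7 genes had a median ratio of 1.22.

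**Figure D3:**
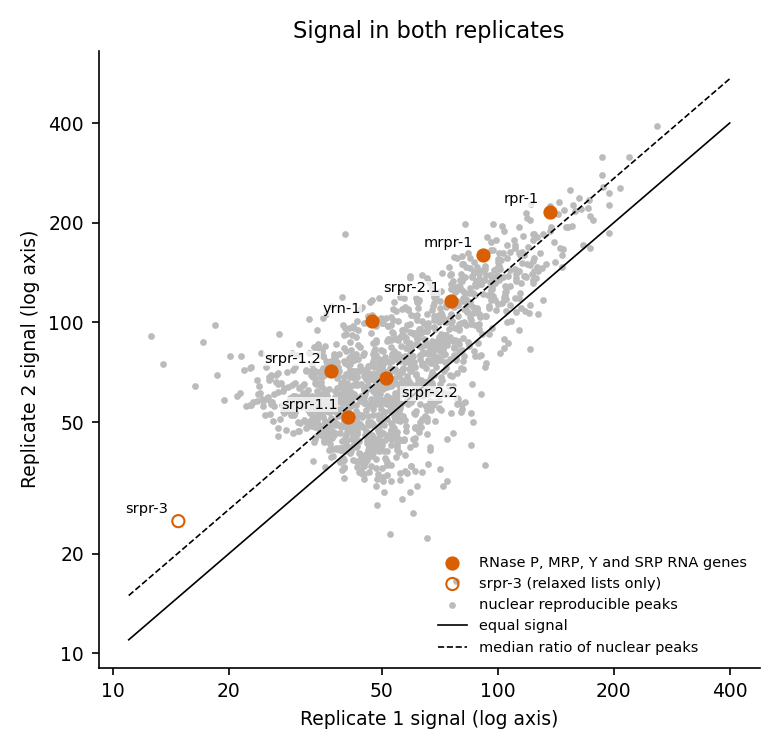
Replicate 2 signal against replicate 1 signal, both on log axes, for nuclear reproducible peaks (grey), the 7 genes (filled) and srpr-3 (open); the solid line marks equal signal and the dashed line the median ratio of 1.36. All 7 genes lie above the solid line, and yrn-1 lies furthest from it with a ratio of 2.15. Genes are placed by their strongest summit in each replicate, and the 2 summits of srpr-1.1 were 191 bp apart.

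The summits did not lie at the same place in the 7 genes. In the reproducible list the strongest summit was at +9 in rpr-1, +36 in yrn-1, +78 in mrpr-1, +111 in srpr-1.2 and +116 in srpr-2.1. It was at +245 in srpr-2.2 and at +451, past the gene, in srpr-1.1. None of the 7 was upstream of the first base, and 6 lay inside the gene. The median offset was +111 bp, with the middle 50% from +57 to +180. For tRNA genes it was +11.5 bp (-7 to +45), with 139 of 472 upstream, and for snoRNA genes -38 bp (-52 to -3), with 58 of 77 upstream. It was +89 bp (+48 to +186) for snRNA genes and +85 bp (+9 to +148) for the other RNA genes of 100 to 300 bp. For the 7 genes it was +24 bp in replicate 1 alone and +110 bp in replicate 2 alone. Gene lengths differ between these classes.

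The replicates also placed the strongest summits differently. The strongest summit of yrn-1 was at -13 in replicate 1 and at +33 in replicate 2, so only replicate 2 placed it inside the gene. At rpr-1 the replicates placed it at +9 and +55, and at mrpr-1 at +40 and +73. The SRP RNA genes were less settled, with +24 and +113 at srpr-2.1, +144 and +245 at srpr-2.2, +3 and +110 at srpr-1.2, and +242 and +433 at srpr-1.1. The replicates' strongest summits were thus 33 to 46 bp apart at rpr-1, mrpr-1 and yrn-1, and 89 to 191 bp apart at the 4 SRP RNA genes. The median distance was 25.5 bp at tRNA genes, 15 bp at snoRNA genes and 26 bp at snRNA genes.

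Further summits stood beside the strongest one. At srpr-2.1 they were in every list, at +322 in the reproducible list, at +228 in replicate 1 (65.6) and at +321 in replicate 2 (46.1). The pooled list had a second summit of 69.5 at +232 in rpr-1 and 1 of 33.3 at +310 in srpr-1.2. It had 2 more in srpr-1.1, of 66.7 at +232 (rank 2050) and of 29.9 at +10. Replicate 1 also had 43.1 at +210 in rpr-1, 37.6 at +241 in mrpr-1 and 12.8 at +189 in yrn-1. In replicate 2, yrn-1 had a further summit of 12.9 at +233. At srpr-2.2 replicate 2 had 52.8 at +14, close to the 67.7 of its strongest summit at +245, while replicate 1 had a single summit between them at +144. Over the 4 lists, 17 pairs of neighbouring summits within 200 bp of the 7 genes were 199 to 239 bp apart. In each whole list the smallest distance between neighbouring nuclear summits was 199 bp, and in the pooled list 10.2% of neighbours were under 240 bp apart, so summits of 1 gene at this spacing were at the lower limit of what the lists contain.

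**Figure D4:**
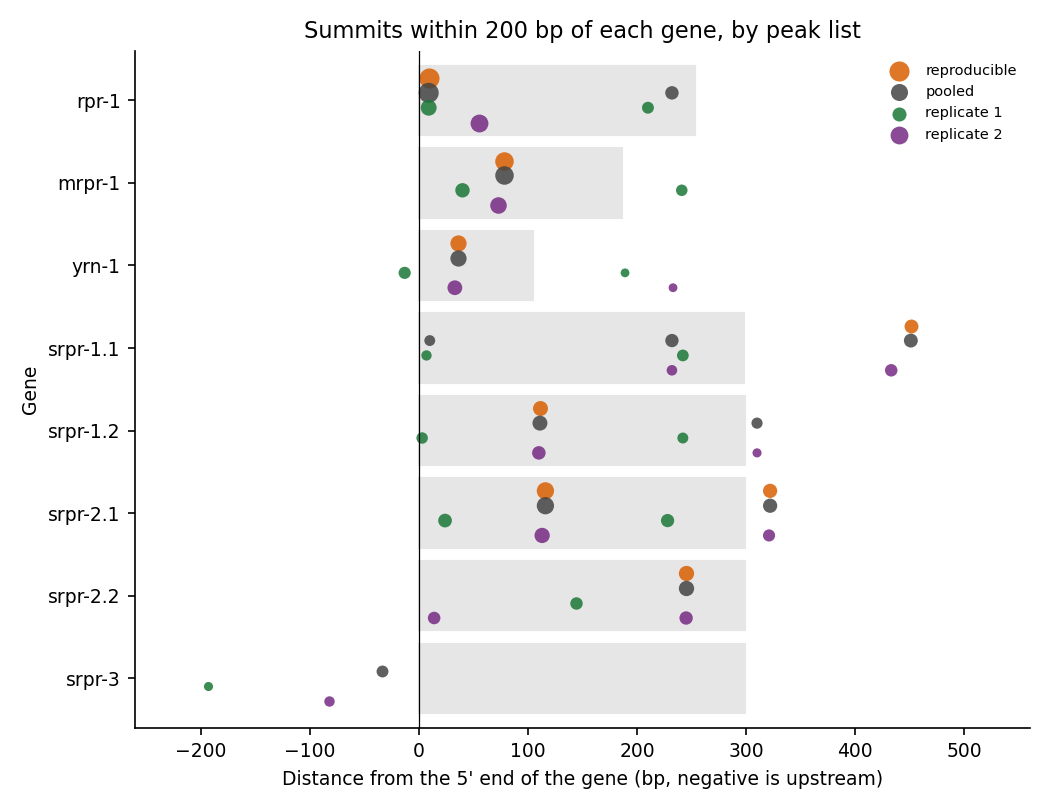
Position of every summit within 200 bp of each gene, in bp from its 5′ end, for the reproducible, pooled, replicate 1 and replicate 2 lists; grey boxes are the genes and larger points have higher signal. The strongest reproducible summits lie at +9 to +78 in rpr-1, mrpr-1 and yrn-1, and at +111 to +451 in the 4 SRP RNA genes. Over all lists, the summits run from -13 to +241 in the former and from +3 to +451 in the latter. Those of srpr-3 are all upstream.

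Peak widths also differed. The commonest width was 436 bp, shared by 80.4% of reproducible peaks, and the peaks of yrn-1 and of the 4 SRP RNA genes had it. The peak at rpr-1 was 390 bp wide (I:13463800-13464189) and that at mrpr-1 218 bp wide (II:7200193-7200410). The pooled signal was close to the sum of the replicates' signals, at 0.975 to 0.996 times that sum, in 6 of the 7 genes. It was 0.858 times the sum at srpr-1.1, where the replicates' strongest summits were 191 bp apart. For nuclear reproducible peaks the median was 0.998, with the middle 50% from 0.976 to 1.01. There the replicate summits were taken within 200 bp of the peak's own summit, and not of a gene.

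Sequence that occurs once in the genome was scarce in the SRP RNA genes with a peak. Of all 36-base words inside the gene, read on both strands of the genome, 14.8% occurred once for srpr-1.1, 28.8% for srpr-1.2, 31.4% for srpr-2.1 and 33.0% for srpr-2.2. For rpr-1, mrpr-1, yrn-1 and srpr-3 it was 100%. In the 200 bp downstream it was 100% for all of them, and in the 200 bp upstream it was 100% except at srpr-1.1 (78.8%) and srpr-1.2 (81.8%). Neither the read length nor the treatment of reads that match several places was stated in the labels or list headers, so the words of 36 bases describe the genome and not the reads. With 50 bases the shares inside the gene were 23.3%, 41.2%, 38.8% and 40.4% for srpr-1.1, srpr-1.2, srpr-2.1 and srpr-2.2.

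Some summits of the SRP RNA genes lay where no such word was unique. Each base is covered by 36 words of this length. None of the 36-base words over the srpr-1.2 summit at +111 occurred once, nor did any over the replicate 1 summits of srpr-2.1 at +24 and srpr-2.2 at +144. At the reproducible summits of srpr-2.1 it was 9 of 36 words at +116 and 36 of 36 at +322. It was 33 of 36 at the srpr-2.2 summit and 36 of 36 at the srpr-1.1 summit past the gene. Signal at the srpr-1.2 summit at +111 therefore cannot be told apart from signal at its copies by such words, and for the srpr-2.1 summit at +116 this can be done only in part. Whether repeated sequence shaped the summit positions was not tested.

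**Figure D5:**
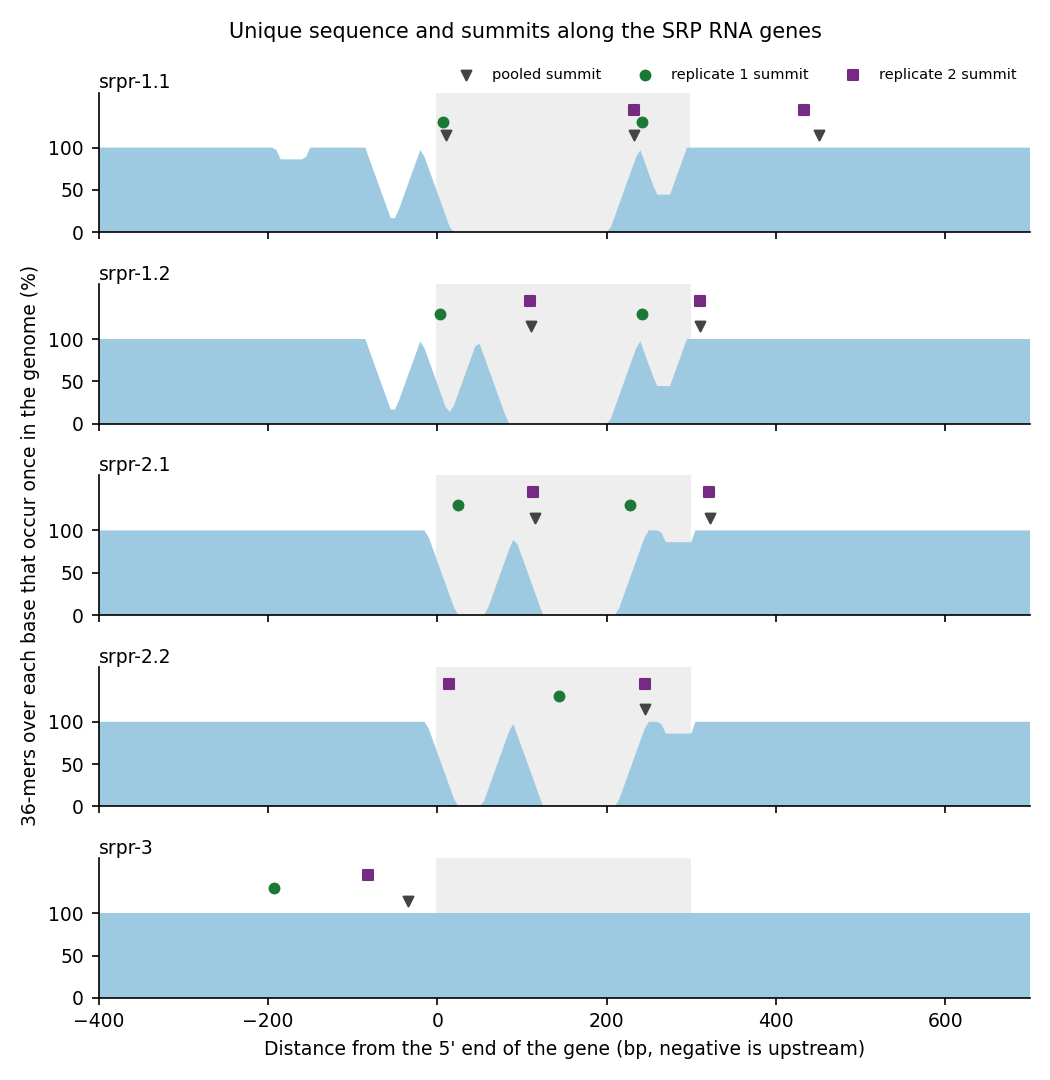
Percent of the 36-base words over each position that occur once in the genome (shaded area) along the 5 SRP RNA genes, against distance from the 5′ end in bp, with the gene as a grey box and the summits of the pooled list and both replicates as symbols above. In the 4 genes with a reproducible peak the share falls to 0 within the gene and returns to 100% downstream, and in srpr-3 it is 100% throughout.

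No other reproducible peak was near. Within 5000 bp, each gene had its own reproducible summits and no others, 2 at srpr-2.1 and 1 at each of the others. The relaxed pooled list had 1 summit within 5000 bp of mrpr-1 and of yrn-1. It had 6 at srpr-1.1 and 6 at srpr-2.1, their own included. The next reproducible summit was 6131 bp from srpr-2.2 (91.6), 6931 bp from srpr-1.2 (114.1), 8396 bp from srpr-2.1 (89.1) and 8620 bp from yrn-1 (88.2). For srpr-1.1 it was the 106.4 summit of srpr-1.2, 9330 bp away. At mrpr-1 it was 16121 bp away with 310.9. The nearest gene for a tRNA, snoRNA, snRNA, miRNA or rRNA was between 6825 bp (the tRNA gene B0285.t1, from srpr-1.2) and 74510 bp (the snoRNA gene F32E10.10, from yrn-1) away.

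Among about 1100 RNA genes with a reproducible summit within 200 bp, the one most like each of the 7 in signal over both replicates was found by the distance in log10 signal. For rpr-1 it was the tRNA gene F52C9.t1 (135 in replicate 1 and 212.7 in replicate 2), and for mrpr-1 the snoRNA gene T08B2.13 (91.6 and 160.1). For yrn-1 it was the tRNA gene C52E12.t2 (47.6 and 98.7). The tRNA genes ZK678.t1 and ZK678.t3 were the closest to srpr-2.1 and srpr-1.2, the ncRNA gene C06A6.14 to srpr-2.2 and the piRNA gene 21ur-14449 to srpr-1.1. The distances were 0.00148 to 0.0115, over 2 samples only.

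Genes for the proteins that work with these RNAs were looked up as well. Of 50 such genes, 3 had a reproducible summit near a transcript start, at most 1000 bp upstream or 300 bp downstream, against 3.39% of 19973 nuclear protein-coding genes. F21D5.7, which codes for the 54 kDa SRP protein that binds signal peptides, had 80.6 at +232 bp (rank 1399). The gene rpac-19, which codes for a subunit shared by RNA polymerases I and III, had 94.8 at -216 bp (rank 1011). Both signals were below the median of 116 of the reproducible list. By list, it was 2 of 9 genes of SRP proteins and their receptor, 1 of 22 of RNA polymerase III and its factors, 0 of 7 of RNase P and MRP proteins, 0 of 2 of the Ro and La proteins (rop-1 and ssb-1), and 0 of 10 of SNAPc, the complex that binds the proximal sequence element. The SRP list includes mig-2, known as a Rac GTPase, through its RefSeq product name. The list of RNase P and MRP proteins includes popl-7 by symbol, although its RefSeq product name is Protein kish.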

How the data were processed

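The 2 biological replicates of DIE-1 ChIP-seq from whole young adult worms formed 1 group. The authors deposited peak lists made from alignments and a control, per the notes filed with the lists. The control was not analysed here. The aligner, peak caller and IDR cut-off were not given in the sources used here. Peak signal of the deposited lists was used as the authors' own value, unchanged. The authors' q-value column is −log10 of the q-value. Summits were taken from the deposited summit offset in bp from the peak start. Lists on ce11 (WBcel235) were used, every peak end lay within its chromosome's length, and the ce10 lists were not used. Per the labels, anti-GFP is named in the description and die-1 in the antibody field. Depth is not given by peak lists and limits the precision to an unknown degree.

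A gene had a peak when a summit lay within 200 bp of its Ensembl 115 model, and the strongest was reported. Peaks were ranked by signal. Sequence came from the RefSeq WBcel235 genome. Alignments were global (match 2, mismatch -1, gap opening -4, gap extension -1). Protein genes were found by symbol or RefSeq product name; 8 symbols matched none, namely rpp-1, bdp-1, snpc-1.5 and 5 of SRP proteins. Named genes were the 7 genes, srpr-3, neighbours within 500 bp, the most alike RNA gene of each, and protein genes with a peak, of which 1 is not reported here. The genes, lists and words were chosen with earlier results of these data known. Peaks and genes are not replicates, and no test was made. Alternatives were other distances, each replicate alone, other windows, words of 50 bases, RefSeq ends and scaled signals. Scripts were tested on simulated data and used Python 3.11.15, Biopython 1.88 for alignment, pandas 2.3.3, numpy 2.4.6 and matplotlib 3.10.9.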

Additional observations from a re-analysis of the deposited data

How the results depend on the processing

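Of 20 alternatives, 4 were counted as moved: the median rank and the median offset without replicate 2, the scaled replicate ratio, and TATAAA or TATATA in the narrower window. The other 16 were counted as the same. That label is loose, since it includes 5 genes in place of 7 and a median rank of 323 in place of 437. The count of genes with a peak stayed between 5 and 7: it was 6 with the summit within 100 bp or inside the gene, which lost srpr-1.1, 7 within 500 bp or with any overlap, and 5 in the upper 50% of the list by signal, which lost srpr-1.1 and srpr-1.2. Leaving out a replicate gave 6 to 7, and srpr-1.2 was missing from the strongest 1432 peaks of replicate 1. The median rank of 437 ran from 323 without replicate 1 to 747 without replicate 2. These ranks come from lists of unlike length, 1432, 29268 and 23789 peaks in that order. The median offset of +111 bp ran from 24.0 bp without replicate 2 to 110 bp without replicate 1, and stayed at 111 bp with RefSeq ends or the pooled list. The median replicate ratio of 1.59 became 1.22 when each signal was divided by the median of its replicate. Genes with TATAAA or TATATA fell to 3 in the narrower window, against 7 in the wider one. Protein genes with a peak numbered 2 in the narrower and 4 in the wider promoter window, against 3. No paired analysis was possible because the series has 1 group and no contrast. The lists carry no read counts, so depth sets an unknown limit on every value.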
